A study of Homo sapiens with 2 samples.

Results

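Heterogeneous nuclear ribonucleoprotein (hnRNP) genes and the genes that lie across them on the other DNA strand were read side by side in a U2AF2 eCLIP experiment. The 8 rows described here, of 58347 gene rows in the table, were the hnRNP genes HNRNPK, HNRNPH3, HNRNPAB and HNRNPU and the opposite-strand genes AL354733.3, PBLD, RUFY2 and PHYKPL. The members were chosen by name with the own-row and opposite-strand counts of these libraries in view, so the contrast between an hnRNP row and its opposite-strand row is given as a description, with no test. COX20, which lies opposite HNRNPU, was added as its partner and is not among the 8. In eCLIP, ultraviolet light (here 400 mJ per square cm) links RNA to the proteins that touch it, an antibody (here 8 μg against U2AF2) pulls the complexes out, and the RNA is sequenced. Both libraries came from untreated HEL cells, a human erythroleukemia line, as 2 biological replicates of 1 group, sequenced as paired 100-base reads. Input libraries were not analysed here, so the amount of an RNA and its binding by U2AF2 cannot be told apart.

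The gene rows held 995428 counts in replicate 1 and 1350116 in replicate 2, which were 2.66% and 2.60% of the uniquely mapped reads, and 97.3% and 97.4% were tallied on no feature. No source used here gives the strand setting of the counting, and which strand a read came from is uncertain for every row. Markers of the cell type were thinly covered. The 8 erythroid markers held 93 and 123 counts in total, the 6 megakaryocyte markers 413 and 547, the 4 T cell markers 73 and 96, the 3 B cell markers 8 and 14, and the 3 hepatocyte markers 7 and 5. GP1BA, a platelet receptor gene, held 312 and 413 counts, and PF4, CD3D and ALB were at 0.

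hnRNP proteins coat nascent transcripts and steer splicing, export and stability of the RNA. U2AF2 is the subunit of the splicing factor U2AF that binds the polypyrimidine tract just before the 3′ end of an intron, where the intron closes with AG. Some hnRNP proteins bind pyrimidine-rich RNA themselves. HNRNPK and the PCBP proteins recognise C-rich stretches with KH domains, and PTBP1 binds U- and C-rich stretches that can lie where U2AF2 binds.

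The intron ends at these loci are shown first, because they are the kind of site U2AF2 is known for. The genes were chosen for overlap on opposite strands, and a site inside an opposite-strand exon depends on that overlap. The exact place of intron ends was not part of the choice of genes. All lines but HNRNPK intron 5 (20 bases) and HNRNPH3 intron 6 were chosen after values were seen. Gene models were those of GENCODE 29 on GRCh38, and a site was called inside a row when the last 20 intron bases lay whole within the merged exons of that row. Each line gives the last intron bases and 3 exon bases, 5′ to 3′ on the strand of the named gene, read from GENCODE 29 transcripts. Capitals mark the longest unbroken run of pyrimidines in the intron part, the first where runs tie.
HNRNPK intron 5 (chr9:83975503-83975525, minus strand): aacgCCaatgaccaatgcagtac
The same intron end with its last 100 bases (chr9:83975503-83975605, minus strand): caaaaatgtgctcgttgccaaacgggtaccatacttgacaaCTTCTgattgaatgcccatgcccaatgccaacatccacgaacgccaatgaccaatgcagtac
HNRNPH3 intron 6 (chr10:68341154-68341176, plus strand): aagtgTTTCCTTTTatttagttc
HNRNPH3 intron 7 (chr10:68341565-68341587, plus strand): TCTTTCTTTTTTTCTTaaagaac
HNRNPH3 intron 8 (chr10:68341739-68341761, plus strand): TTTCTTTTTTCTTTTTaaagata
HNRNPAB intron 2 (chr5:178205822-178205844, plus strand): gTCTCaccctaccatttcagaaa
HNRNPU intron 7 (chr1:244857715-244857737, minus strand): aTTTCTTTTCTTTTCactaggtt
COX20 site 1 (chr1:244841924-244841946, plus strand): gTTCTTTTTTTTCattctagtcc
COX20 site 2 (chr1:244842175-244842197, plus strand): tgttatgcttaTTTTTacaggta
COX20 site 3 (chr1:244842179-244842201, plus strand): atgcttaTTTTTacaggtagaat
COX20 site 4 (chr1:244843021-244843043, plus strand): tcataTTCTTTTCTTCTaaggtt

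The intron 5 end of HNRNPK lies within the exons of AL354733.3, the intron 6 end of HNRNPH3 within those of RUFY2, and the 4 COX20 sites within those of HNRNPU. HNRNPK intron 5 also lies in exons of HNRNPK itself, and COX20 site 1 in those of COX20. The other sites lie in exons of the gene's own row, where another transcript of the gene keeps the intron. They are, for HNRNPH3, HNRNPAB and HNRNPU, the readable ends with the longest run, chosen after their sequences were seen. They show the upper end of the readable sites and not the usual site of each gene. In the transcripts used, 3 of 16 introns of HNRNPK, 7 of 9 of HNRNPH3, 2 of 7 of HNRNPAB and 12 of 13 of HNRNPU could be read. The medians below cover those only. Intron 5 of HNRNPK was poor in pyrimidines, with 8 of the last 20 intron bases and a longest run of 2, and its last 100 bases held 50 pyrimidines and no run longer than 5. It was the poorest of the 3 readable ends of HNRNPK, which ranged up to 17 of 20 and a run of 12, with medians of 12 and 7. HNRNPH3 intron 6 had 13 of 20 and a run of 9, and introns 7 and 8 of HNRNPH3 had 16 of 20 and runs of 16. Over its 7 readable ends HNRNPH3 had a median of 13 of 20 and a run of 9. Introns 1 and 2 of HNRNPAB had 11 and 14 of 20, with runs of 2 and 4. HNRNPU intron 7 had 16 of 20 and a run of 14, against medians of 11.5 and 6 over its 12 readable ends. COX20 sites 1 and 4 had 16 and 15 of 20 with runs of 12, and sites 2 and 3, which end 4 bases apart, had 13 and 11 with runs of 5. All 24 intron ends of the 4 hnRNP genes that could be read ended in AG.

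**Figure D1:**
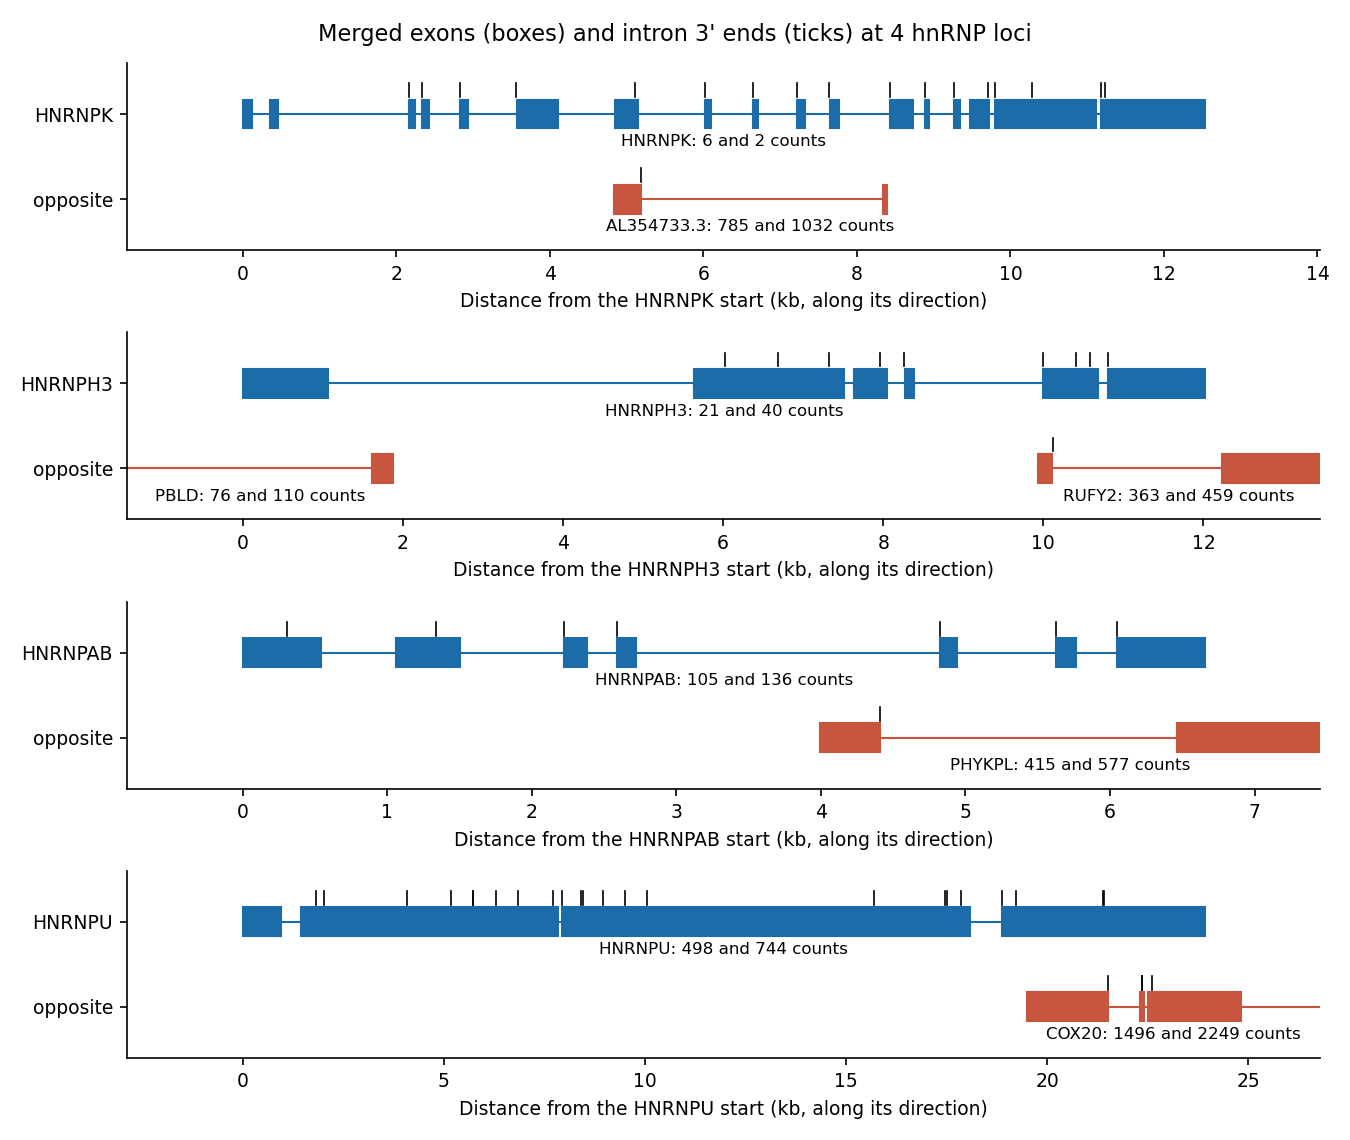
Merged exons (boxes), introns (lines) and annotated intron 3′ ends (ticks) of the 4 hnRNP genes (blue) and their opposite-strand genes (red), by distance in kb from the start of the hnRNP gene along its direction, with the counts of each row in replicates 1 and 2. AL354733.3 lies wholly within HNRNPK. PBLD runs past the start of the hnRNP gene and RUFY2, PHYKPL and COX20 past its end, and these are drawn only in part.

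HNRNPK encodes a KH-domain protein that binds C-rich RNA and DNA. Its row held 6 counts in replicate 1 and 2 in replicate 2. The gene spans chromosome 9, 83968083 to 83980616, on the minus strand, with 5114 bases of merged exons in 17 blocks. HNRNPK was at 1.56 counts per kb of exon over both libraries (exact 95% Poisson interval 0.675 to 3.08), the lowest level per kb of all the rows described. It was below the 10 counts in each library required for the replicate test.

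AL354733.3 is an annotated antisense RNA gene on the plus strand (chromosome 9, 83972233 to 83975777), wholly inside HNRNPK. Its row held 785 and 1032 counts on 390 bases of exon. That is 1991 ± 8.18 CPM per kb (SD, n = 2; CPM scales counts to 1000000 per library), the highest level per kb of the rows described. Of its exon bases, 309 lie over HNRNPK exons and 81 over HNRNPK introns. The HNRNPK row took 0.759% of the counts of both rows in replicate 1 (exact 95% binomial interval 0.279 to 1.64) and 0.193% in replicate 2 (0.0234 to 0.697). Both libraries thus had nearly all counts of the locus on the antisense row. Of the 17 annotated intron ends of HNRNPK, 4 lie in exons of HNRNPK itself. The 1 shown above is among these 4 and also lies in AL354733.3 exons. The microRNA gene MIR7-1, inside an HNRNPK exon on the same strand, held 0 counts.

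Reads mapping to several places are outside the gene counts, so rows of genes with near-identical copies are uncertain. GENCODE 29 names 5 pseudogenes of HNRNPK, which held 0 and 1 counts together. HNRNPH3, HNRNPAB and HNRNPU each have 1 such pseudogene, and all 3 were at 0. The number of multimapping reads from each hnRNP gene cannot be read from the table, for HNRNPK as for the others.

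HNRNPH3 encodes a member of the H/F group, which binds G-rich RNA. It lies on the plus strand of chromosome 10, 68331174 to 68343191, between 2 genes that overlap its ends. The HNRNPH3 row held 21 and 40 counts, or 4.73 ± 1.21 CPM per kb of exon (SD, n = 2). PBLD (68282660 to 68333049, minus strand), named for its phenazine biosynthesis-like domain, starts inside the first intron of HNRNPH3 and held 76 and 110 counts. RUFY2 (68341107 to 68407294, minus strand), a RUN and FYVE domain gene of the endosomal pathway, ends inside HNRNPH3 and held 363 and 459 counts.

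The HNRNPH3 row took 4.57% of the counts of the 3 rows in replicate 1 (exact 95% binomial interval 2.85 to 6.89) and 6.57% in replicate 2 (4.73 to 8.84). Both partners were above HNRNPH3 in both libraries, also per kb of exon, at 15.3 ± 0.975 CPM per kb for PBLD and 43.3 ± 1.37 for RUFY2 (SD, n = 2). Only 266 of 5172 exon bases of PBLD and 182 of 8137 of RUFY2 lie within the HNRNPH3 span. Where on these rows the reads fell is not recorded, so the counts of the partners cannot be placed in or out of the overlap. The overlapping RUFY2 exon covers the intron 6 end of HNRNPH3, and no PBLD exon covers an HNRNPH3 intron end. HNRNPH3 itself has 6 of its 9 intron ends within its own merged exons, among them the runs of 16 pyrimidines shown above, on a row of 61 counts over both libraries.

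HNRNPAB encodes an A/B-type hnRNP protein with RNA recognition motifs, and lies on the plus strand of chromosome 5, 178204507 to 178211163. Its row held 105 and 136 counts, or 103 ± 1.51 CPM (SD, n = 2), on 2144 bases of exon. PHYKPL, a phospho-lyase gene of hydroxylysine breakdown (178208497 to 178232791, minus strand), held 415 and 577 counts on 8402 bases of exon. The HNRNPAB row took 20.2% of the counts of both rows in replicate 1 (exact 95% binomial interval 16.8 to 23.9) and 19.1% in replicate 2 (16.3 to 22.2).

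Per kb of exon the gap at this locus nearly closed. HNRNPAB was at 48.6 and 47.6 CPM per kb and PHYKPL at 49.0 and 51.5. The counts per kb over both libraries were 112 for HNRNPAB (exact 95% Poisson interval 98.7 to 128) and 118 for PHYKPL (111 to 126), intervals that overlap. No intron end of either gene lies in the exons of the other. The tail ends of the genes overlap over 2667 bases, with 615 exon bases of PHYKPL inside the HNRNPAB span.

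HNRNPU, also called SAF-A, encodes an RNA-binding scaffold protein of the nuclear matrix. Its row, on the minus strand of chromosome 1 from 244840638 to 244864560, held 498 and 744 counts, the most of any hnRNP gene listed here. COX20, a gene for an assembly factor of cytochrome c oxidase (244835322 to 244845057, plus strand), held 1496 and 2249 counts. The HNRNPU row took 24.97% of the counts of both rows in replicate 1 (exact 95% binomial interval 23.1 to 26.9) and 24.86% in replicate 2 (23.3 to 26.4). Per kb of exon HNRNPU was at 23.4 ± 2.01 CPM per kb and COX20 at 326 ± 29.5 (SD, n = 2).

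The HNRNPU model is unusual in that merged exons fill 94.1% of the span, since transcripts that keep introns are annotated. As a result 21 of its 23 intron ends lie within its own exons, beside the 4 of 5 intron ends of COX20 that lie there on the other strand. In turn 72.0% of COX20 exon bases, 3502 of 4864, lie over HNRNPU exons. Of the 21 HNRNPU intron ends, 2, each used by 1 annotated transcript, also lie in COX20 exons. The deposited identifiers of HNRNPU and RUFY2 carry another version than GENCODE 29, so the models behind their counts may differ from those measured here. The other 6 identifiers carry the same version.

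**Figure D2:**
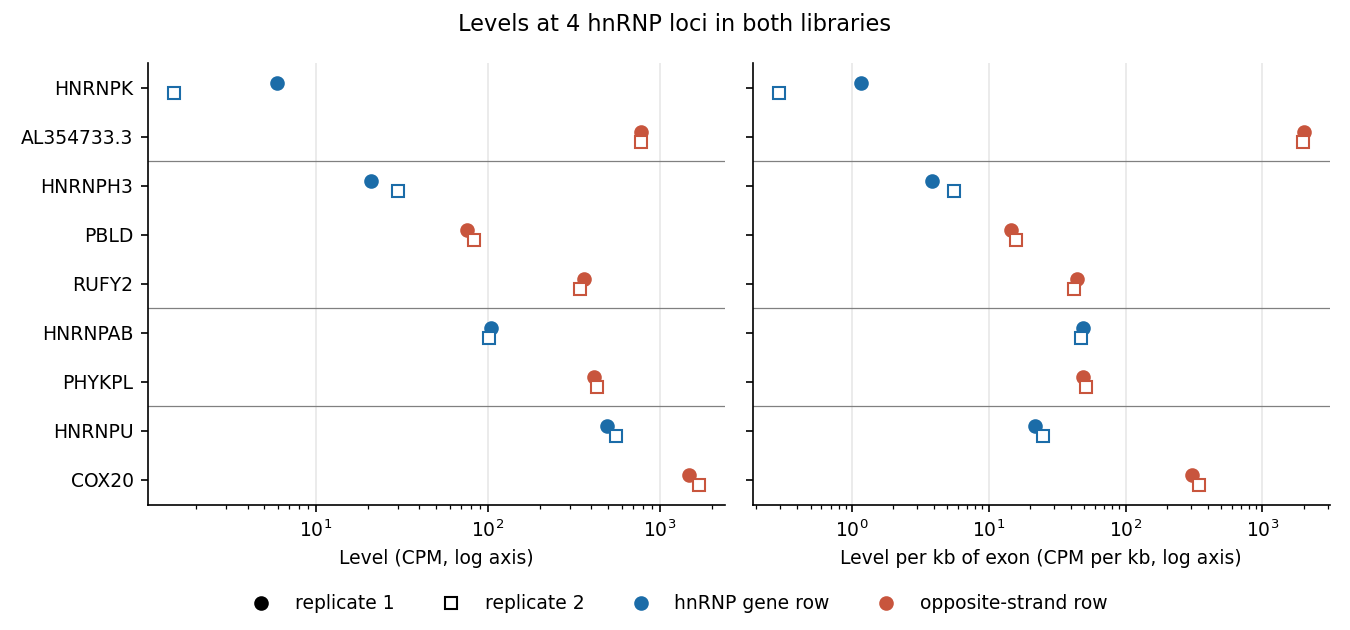
Level of each row in replicate 1 (filled circles) and replicate 2 (open squares), in CPM on the left and CPM per kb of merged exon on the right, both on log axes, with lines between loci. Opposite-strand rows (red) lie above the hnRNP rows (blue) at all 4 loci in CPM, while HNRNPAB and PHYKPL nearly coincide per kb, at 48.1 and 50.3.

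Ordered by mean level per kb of exon, AL354733.3 came first, then COX20, PHYKPL, HNRNPAB, RUFY2, HNRNPU, PBLD, HNRNPH3 and HNRNPK. No neighbours in this order overlapped between libraries in CPM per kb. Counting intervals of counts per kb did overlap for PHYKPL with HNRNPAB and for HNRNPAB with RUFY2 (101, exact 95% Poisson interval 94.2 to 108). The place of HNRNPAB among those 3 rows is therefore not settled at this depth. The intervals of PHYKPL (111 to 126) and RUFY2 did not overlap. With 3 counts as the upper limit for a row at 0, undetected rows could hold up to 2.98 CPM (replicate 1) and 2.25 CPM (replicate 2). HNRNPK, at 1.50 CPM in replicate 2, was below that level. All intervals cover counting error only.

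At all 4 loci the opposite-strand rows held more counts than the hnRNP row in both libraries, as the choice of members fixed. Of 5980 protein-coding genes that had an opposite-strand gene over an exon and a locus total of 10 counts or more in both libraries, 61.8% did so. The median own share over those genes was 24.9% (quartiles 4.49 to 74.5), against 0.438% for HNRNPK, 5.71% for HNRNPH3, 19.5% for HNRNPAB and 24.9% for HNRNPU over both libraries.

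The wider hnRNP family was read from a list of 29 genes, all of them measured. Of these, 13 held at least 10 counts in each library, or 44.8%, against 24.8% of 19817 protein-coding genes. The median sum of both libraries was 24 counts for the list and 4 for all protein-coding genes. HNRNPU alone held 54.2% and 55.9% of the list's counts in the 2 libraries. After HNRNPU and HNRNPAB came PCBP2, a KH-domain gene, with 59 and 81 counts, and HNRNPUL1, a relative of HNRNPU, with 32 and 70. RBMX, the hnRNP G gene, held 26 and 34, close to HNRNPH3. HNRNPLL was at 0 in both libraries.

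For 14 of the 29 genes, or 48.3%, an opposite-strand gene covered exon bases, against 41.7% of all protein-coding genes. The own rows of these 14 genes had a median sum of 45.5 counts. The other 15 genes had a median of 7, between 0 and 52, and 3 of them held at least 10 counts in each library. No test was made of this difference, and the same medians over all protein-coding genes are not given here. It is not known which strand was counted, so a low own row does not show that U2AF2 leaves an hnRNP transcript unbound.

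Besides the 4 loci above, 10 hnRNP genes had an opposite-strand gene. At 8 of the 10 loci, or 80%, the opposite-strand rows exceeded the own row in both libraries, against 61.8% of the 5980 genes above. At the 7 of these 8 loci with counts on the own row, its share ran from 0.224% for HNRNPM to 13.4% for RALY over both libraries. HNRNPM held 1 and 1 counts against 428 and 462 for AC136469.2, a single-exon gene across its first exon. HNRNPA2B1 held 7 and 17 counts, and its opposite-strand genes NFE2L3, a transcription factor gene, and CBX3, a heterochromatin protein gene, held 1352 and 1955 together.

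At the remaining such loci own rows held a larger share. PCBP1 held 19 and 31 counts against 651 and 822 for PCBP1-AS1, and PCBP2 held 59 and 81 against 606 and 867 for the kinase gene MAP3K12. HNRNPUL1 held 32 and 70 against 788 and 1107 for TGFB1, the growth factor gene that overlaps its 3′ end. RBMX held 26 and 34 against 168 and 224 for the pseudogene RAB28P5, and RALY 17 and 11 against 77 and 104 for the translation factor gene EIF2S2. HNRNPA3 and HNRNPD differed from these. Their antisense genes AC079305.3 and AC124016.1 each held 0 and 2 counts, against 16 and 15 for HNRNPA3 and 22 and 19 for HNRNPD, so the own row was the higher there.

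**Figure D3:**
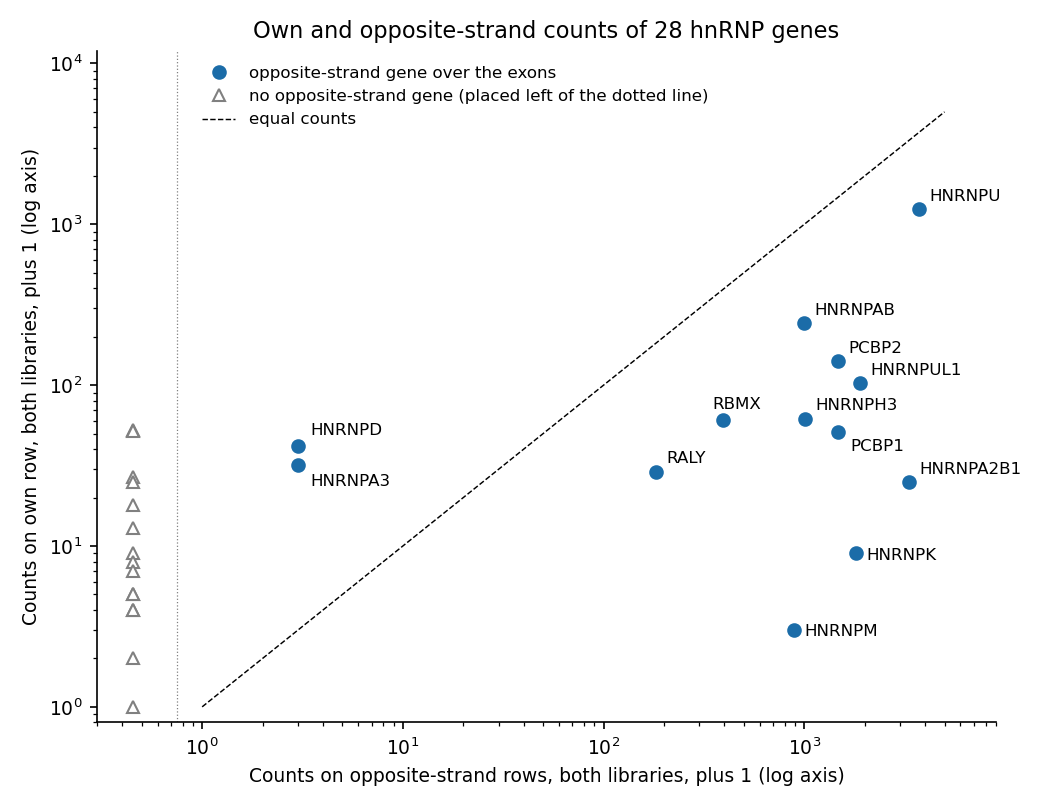
Counts on the own row against counts on the opposite-strand rows for 28 of the 29 hnRNP genes, summed over both libraries with 1 added, on log axes. Circles are 13 genes with an opposite-strand gene and counts of their own, of which 11 lie below the line of equal counts, and triangles are the 15 genes without one, all at 52 counts or fewer.

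The place of intron ends was then described over the whole table. Of rows crossed by a protein-coding gene of the opposite strand, 2871 held at least 1 intron end of that gene within their exons, with a median of 29.7 counts per kb of exon over both libraries (quartiles 2.12 to 160). The 11373 rows without one had a median of 7.79 (0.235 to 42.4). Antisense rows such as AL354733.3 had medians of 58.4 with and 10.4 without, over 1305 and 3429 rows. With 1817 counts on 390 exon bases, AL354733.3 was at 4659 counts per kb, above the upper quartile of 313 for antisense rows with such a site. AL354733.3 was chosen with its counts in view, so its place among those rows is not independent of the choice. Protein-coding rows crossed in this way had medians of 22.5 with (1222 rows) and 5.86 without (3212 rows). Intron ends of a row's own gene were set beside these. Protein-coding rows with no opposite-strand gene had a median of 0.688 counts per kb where an own intron end lay in their exons (6754 genes) and 0.326 where none did (4792 genes). The difference between these gaps was not tested. Exon length also differed between the classes, with medians of 2750 and 792 bases for all crossed rows, 5464 and 4166.5 for crossed protein-coding rows and 4832.5 and 2430 for the own intron ends, and its part was not tested.

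HNRNPAB and PHYKPL fall in the class without opposite-strand intron ends and PBLD does too, while RUFY2, HNRNPU, COX20 and AL354733.3 fall in the class with at least 1. HNRNPH3 also holds 1 such site, an intron end of RUFY2, and stood at 11.4 counts per kb. Levels per kb did not sort by class among these rows. PHYKPL (118) and HNRNPAB (112), without such a site, stood above RUFY2 (101) and HNRNPU (55.2), which hold at least 1. The counting intervals of HNRNPAB and RUFY2 overlapped. AL354733.3 (4659) and COX20 (770), with such sites, were the highest, and PBLD, without any, lay between HNRNPU and HNRNPH3. HNRNPK falls in neither class, since its opposite-strand gene AL354733.3 is not protein-coding. Its exons hold no intron end of AL354733.3, and its row stood at 1.56 counts per kb. These are placements from an annotation, and no read positions were available here to set against them.

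Agreement between the libraries was described last. The members were chosen with the counts of both libraries in view, so this comparison is not independent of that choice. Of the 8 rows, 7 held at least 10 counts in each library. They were compared by a conditional binomial test, exact and two-sided, with Benjamini-Hochberg adjustment over all 8983 genes that passed this filter. None of the 7 passed the test, against 0.501% of all genes tested. AL354733.3 was at 779 CPM in replicate 1 and 774 in replicate 2, a log2 difference (replicate 2 over replicate 1) of -0.01 (exact 95% interval -0.14 to 0.13). RUFY2 was at 360 and 344 CPM and HNRNPAB at 104 and 102. PHYKPL was at 412 and 433 CPM and PBLD at 75.4 and 82.5. These 5 rows had log2 differences of about 0.13 or less in size. The exact 95% intervals were wider where counts were fewer, at -0.30 to 0.57 for PBLD and -0.41 to 0.35 for HNRNPAB.

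HNRNPU was at 494 CPM in replicate 1 and 558 in replicate 2, a log2 difference of 0.18 (exact 95% interval 0.01 to 0.34), with an unadjusted exact binomial p of 0.0364 and an adjusted p of 0.524. It was the 1 tested member with an unadjusted p below 0.05, a level that 8.56% of all genes reached. HNRNPH3 had the widest gap of the tested members, 20.83 and 30.01 CPM, with a log2 difference of 0.53 (-0.27 to 1.36) and an adjusted exact binomial p of 0.825. HNRNPK went from 5.95 to 1.50 CPM, which rests on 6 and 2 counts, and its log2 difference of -1.99 had an exact 95% interval of -5.33 to 0.50.

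COX20 was at 1484 CPM in replicate 1 and 1687 in replicate 2, and its log2 difference of 0.19 (exact 95% interval 0.09 to 0.28) passed the test, with an adjusted exact binomial p of 0.0308. HNRNPU and COX20 thus had near-equal log2 differences, of which 1 passed and 1 did not, and the difference between them was not tested. The call for COX20 depended on scaling, with an adjusted exact binomial p of 0.186 when total gene counts were used with no scaling factor. Of the wider list, 13 hnRNP genes were tested and 0 passed, while 2 had an unadjusted p below 0.05, HNRNPU and HNRNPUL1 (0.0210, exact binomial).

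**Figure D4:**
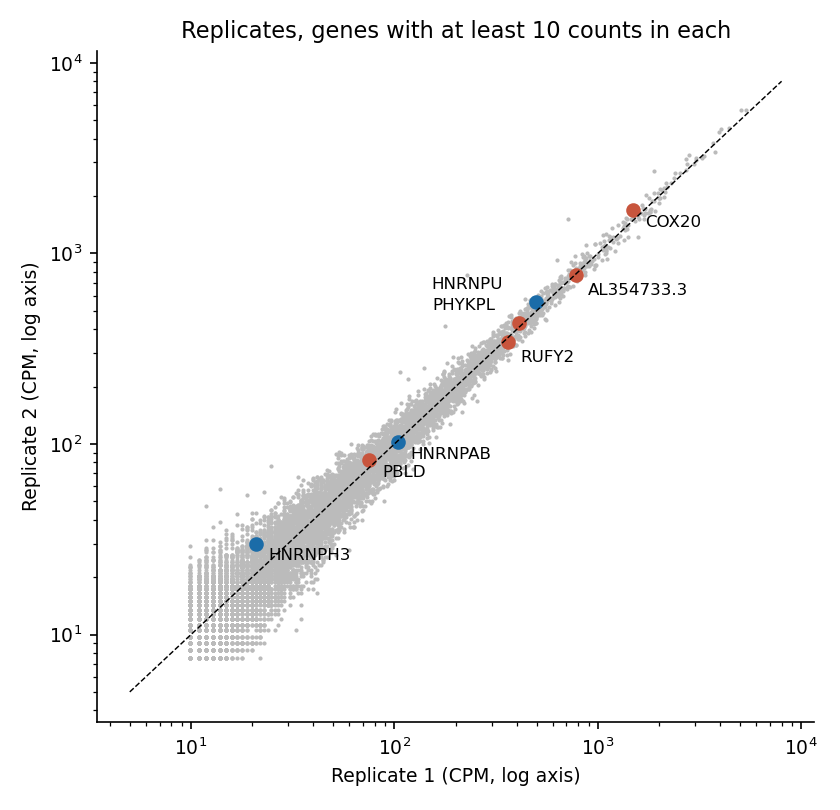
Level in replicate 1 against replicate 2, in CPM on log axes, for the 8983 genes tested (grey), with 3 hnRNP genes in blue and 5 opposite-strand genes in red. The dashed line marks equal levels, and the labelled genes lie along it, HNRNPH3 farthest off at 20.83 and 30.01 CPM.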

How the data were processed

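U2AF2 eCLIP was measured in 2 libraries of HEL cells. The authors deposited raw counts per gene for both, made with cutadapt and STAR 2.7.0f on GRCh38.p10, per the submitters' processing notes. The counting step, strand setting, annotation and removal of duplicate reads are not given in the sources used here, and duplicates left in would make the intervals too narrow. The members and lists were chosen with earlier results of these data known.

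Tallies of reads on no gene were left out of library sizes. Of 58347 rows, 58084 matched GENCODE 29 by identifier without version. Partners were genes whose span covers an exon base of the hnRNP gene on the other strand. Introns under 30 bases were not used. Library sizes were scaled by TMM in edgeR 4.0.16 (R 4.3.3) over genes reaching 10 counts in both libraries (factors 1.01 and 0.987). The replicate test was the exact binomial test at 0.05, which sets the difference between 2 libraries against counting error alone and holds no estimate of replicate spread. It was tried on simulated data with 200 changed genes. Those data were drawn with counting error alone, so the trial does not show how the test behaves under replicate spread. With 1 group no quasi-likelihood test existed.

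Named genes were the members, all genes overlapping hnRNP members, list genes that led in CPM, were at 0, or had a partner with at least 10 counts in each library, and the nearest locus to each hnRNP member. The genes HNRNPA3 and HNRNPD and all printed sites but HNRNPK intron 5 (20 bases) and HNRNPH3 intron 6 were added after values were seen, as was the description of intron ends over the whole table. The printed rule used the transcript with the longest coding sequence. A few single genes of the lists and 1 sequence are not reported here. Alternatives were DESeq2 1.42.0 size factors, unscaled totals, TMM over all genes (added after the data were seen), other filters, single libraries, counts per kb and exon-on-exon partners. Python 3.11.15, numpy 2.4.6, scipy 1.17.1, pandas 2.3.3 and matplotlib 3.10.9 were used.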

Additional observations from a re-analysis of the deposited data

How the results depend on the processing

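Leaving out either library returns the other library's own value, so the shares of the hnRNP row at its locus were 0.193 to 0.759% for HNRNPK, 4.57 to 6.57% for HNRNPH3, 19.1 to 20.2% for HNRNPAB and 24.86 to 24.97% for HNRNPU over single libraries. With exon-on-exon partners only, PBLD dropped out and the HNRNPH3 share became 6.74%, above both single libraries, while the other 3 loci kept the same partners. Computed from counts per kb of exon, by construction a change of unit, the shares became 0.0336% for HNRNPK, 13.0% for HNRNPH3, 48.8% for HNRNPAB and 6.69% for HNRNPU, all still below the partners. The list median of 24 counts was 52 once genes under 10 counts in either library were dropped, where fewer genes remain. The number of genes called between libraries was 45, and 71 with no filter, 49 with DESeq2 size factors, 48 with unscaled totals and 55 with TMM over all genes. None of the 7 tested members was called in any of these settings. COX20 was called except with unscaled totals and with no filter (adjusted exact binomial p of 0.186 and 0.0506). No paired analysis was possible because all samples form 1 group. Depth limits HNRNPK above all, with 8 counts.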

Other observations

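For each of the 4 hnRNP loci, the protein-coding gene nearest to it in own and opposite-strand levels was found over both libraries, as the Euclidean distance in 4 values of log2(CPM + 1). HNRNPK was nearest to EIF4EBP3, a translation repressor gene with 6 and 2 counts of its own and 567 and 760 on SRA1 (distance 0.643). HNRNPH3 was nearest to MYB, a blood cell transcription factor gene with 20 and 34 counts of its own and 481 and 585 on MYB-AS1 (distance 0.273). HNRNPAB was nearest to NSD3, a histone methyltransferase gene with 104 and 132 counts of its own and 372 and 561 on DDHD2 and 2 antisense genes (distance 0.169). HNRNPU was nearest to SQSTM1, an autophagy receptor gene with 560 and 744 counts of its own and 1424 and 1853 on MRNIP and MGAT4B (distance 0.334). Likeness of this kind rests on 2 libraries of 1 group and describes counts only.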
